A study of Homo sapiens
Mus musculus and Mus musculus and Homo sapiens with 16 samples.

Results

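The carriers of the SLC16 family were examined in REC-1 cells, together with their chaperone basigin. The set comprised the 8 human genes SLC16A1, SLC16A3, SLC16A4, SLC16A6, SLC16A7, SLC16A10, SLC16A13 and BSG, found by symbol among the 58051 genes of the human count table, and 7 of them passed the filter on low counts that left 12861 genes for testing. The genes were chosen on their measured levels and group differences in these same libraries, so their levels and differences in REC-1 cells are given as a description, without p-values. REC-1 is a human mantle cell lymphoma line and MS-5 is a mouse bone marrow stromal line, so each compartment stands for 1 line.

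RNA-seq was performed on 4 libraries of each of 4 groups. REC-1 cells were cultured without stroma (Sep), taken from the suspension above MS-5 cells (Susp), or left adhered to MS-5 cells (Adh), and MS-5 cells were also cultured without lymphoma cells. Incubation lasted 24 h, on MS-5 cells seeded 24 h ahead. All groups received αMEM with glutamax, fetal bovine serum and 2 mM sodium pyruvate, which is itself a substrate of several of these carriers. Adh RNA was extracted without separating the cells, so each Adh library holds both species, told apart by sequence. The comparisons ask how transcript levels of lymphoma cells differ with stroma nearby (Susp against Sep), with stroma attached (Adh against Sep), and between both states within a coculture (Adh against Susp).

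SLC16 proteins are membrane carriers. The best known of them, the monocarboxylate transporters encoded by SLC16A1 (MCT1), SLC16A7 (MCT2) and SLC16A3 (MCT4), move lactate, pyruvate and ketone bodies together with a proton, in the direction set by the gradients. SLC16A1 and SLC16A3 proteins reach the plasma membrane in complex with a chaperone, mainly the immunoglobulin superfamily protein basigin (BSG, CD147). SLC16A1 is the usual lactate carrier of dividing lymphocytes, whereas SLC16A3 is typical of strongly glycolytic cells. SLC16A10 (TAT1) differs from these in carrying tyrosine, tryptophan and phenylalanine without a proton. SLC16A6 (MCT7) has been linked to ketone body export, while SLC16A4 (MCT5) and SLC16A13 (MCT13) remain poorly characterized.

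The differences between groups were widest for SLC16A4 and SLC16A10, and the bases ahead of their annotated starts are therefore shown, on the strand of each gene and 5′ to 3′, as read from the GRCh38 genome. SLC16A4 (ENSG00000168679) lies on the minus strand at chr1:110362851-110391082 and SLC16A10 (ENSG00000112394) on the plus strand at chr6:111087503-111231194. The SLC16A4 stretch is chr1:110391083-110391276, the 194 bases that lie outside exons of the gene, and the SLC16A10 stretch is chr6:111087253-111087502, with 250 bases. Capitals mark the CCAAT box (CCAAT) and the GC box (GGGCGG), which do not overlap here.
SLC16A4: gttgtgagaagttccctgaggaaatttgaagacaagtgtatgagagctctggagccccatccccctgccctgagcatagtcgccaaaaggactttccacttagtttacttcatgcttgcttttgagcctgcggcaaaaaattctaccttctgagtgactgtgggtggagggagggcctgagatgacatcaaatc
SLC16A10: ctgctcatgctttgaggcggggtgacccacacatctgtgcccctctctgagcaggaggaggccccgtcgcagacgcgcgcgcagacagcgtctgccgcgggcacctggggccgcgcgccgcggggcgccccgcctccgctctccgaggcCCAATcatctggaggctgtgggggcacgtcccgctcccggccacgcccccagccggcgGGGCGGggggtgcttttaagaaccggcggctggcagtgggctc
G+C content and motifs were read over the 250 bases before the start of the canonical transcript of each gene in GENCODE. For SLC16A4 this window is chr1:110391027-110391276, of which 56 bases lie inside the gene as annotated, since another of its transcripts starts further upstream. In these windows, SLC16A4 had 49.6% G+C and 2 CpG dinucleotides, and SLC16A10 had 74.4% G+C and 28 CpG. Among 19970 such windows of protein-coding genes, with a median of 63.2% G+C and 18 CpG, 17.1% had a lower G+C content than that of SLC16A4 and 83.1% a lower one than that of SLC16A10. None of 5 motifs searched on both strands was found in the SLC16A4 window, namely the GC box (GGGCGG), the CCAAT box, the E-box (CACGTG), the cAMP response element (TGACGTCA) and the TATA box (TATAAA). The SLC16A10 window held CCAAT at 101 and GGGCGG at 43 bases before the canonical start. Of all windows, 59.0% held a GC box, 34.3% a CCAAT box, 7.86% an E-box, 2.41% a cAMP response element and 9.36% a TATA box. The windows of the other 6 genes were between 60.4% and 83.2% G+C.

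Total human counts ranged from 9325412 to 12597891 in Sep, from 15000927 to 21467832 in Susp and from 7758979 to 13241751 in Adh libraries. Levels are given as CPM, counts scaled to the size and composition of each library, and as CPM per kilobase of exon (RPKM) where genes are compared with each other. Exon length was the union over all annotated transcripts of a gene, so RPKM is understated where the expressed transcripts are shorter. Each comparison of groups was a contrast in 1 edgeR quasi-likelihood model of the 12 REC-1 libraries. A gene passed the threshold with a fold change of 1.5 or more and a p-value, adjusted by the Benjamini-Hochberg method, not above 0.05. All 8 markers of B cells and mantle cell lymphoma, including PAX5, CCND1 and SOX11, were detected in each group, with summed levels of 4853 to 5597 CPM in Sep, 5319 to 6315 CPM in Susp and 5096 to 5702 CPM in Adh libraries. As RNA was taken from whole cultures, fewer cells expressing a gene and less RNA per expressing cell cannot be told apart.

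SLC16A1 and BSG carried most of the transcript level of this set. SLC16A1 (ENSG00000155380, chr1:112911847-112957593, minus strand) was at 195, 161, 180 and 172 CPM in the Sep libraries, at 181, 152, 164 and 173 CPM in the Susp libraries and at 201, 173, 196 and 186 CPM in the Adh libraries. The groups overlapped throughout. Within each replicate number the Adh library was above the Susp library. The share of all genes with such an order was not counted, so nothing is read from it. The log2 fold change (± SE) was -0.08 ± 0.09 between Susp and Sep, 0.09 ± 0.09 between Adh and Sep and 0.17 ± 0.09 between Adh and Susp. The antisense gene SLC16A1-AS1 shares 3.64% of the exon bases of SLC16A1. Since the libraries did not mark strand, reads there cannot be told apart. SLC16A1-AS1 was at 14.3 ± 3.32, 12.1 ± 1.13 and 12.2 ± 0.993 CPM in Sep, Susp and Adh cells (SD, n = 4). The effect of the shared bases on the SLC16A1 counts was not tested.

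BSG (ENSG00000172270, chr19:571277-583494, plus strand) was at 235, 319, 322 and 359 CPM in Sep, at 312, 467, 395 and 381 CPM in Susp and at 269, 371, 346 and 405 CPM in Adh libraries. Replicate 1 was the lowest library in each group, and the groups overlapped. Within each replicate number, the Susp and the Adh library were both above the Sep library. Nothing is read from this order, as the share of all genes that show it was not counted. The mean was 308.9 ± 52.7 CPM in Sep, 388.9 ± 63.5 CPM in Susp and 347.6 ± 57.5 CPM in Adh cells (SD, n = 4). Susp differed from Sep cells by 0.33 ± 0.15 (SE) on the log2 scale. The difference was 0.17 ± 0.15 between Adh and Sep cells and -0.16 ± 0.15 between Adh and Susp cells.

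SLC16A4 showed the widest difference of the set. It was at 4.09, 5.36, 4.18 and 4.47 CPM in Sep libraries, at 10.2, 10.8, 9.09 and 12.4 CPM in Susp libraries and at 5.34, 7.61, 7.19 and 7.44 CPM in Adh libraries. All Susp libraries lay above all Sep and all Adh libraries, and the Adh libraries lay above the Sep libraries except for Adh replicate 1, which was just under Sep replicate 2. The group means were 4.52 ± 0.576, 10.6 ± 1.39 and 6.90 ± 1.05 CPM (SD, n = 4) in Sep, Susp and Adh cells, from 40 to 64, 154 to 188 and 56 to 79 counts per library. The log2 fold change was 1.23 ± 0.17 (SE) between Susp and Sep cells, a fold change of 2.34. Of the 12861 genes tested, 27 had a higher one.

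SLC16A4 had a log2 fold change of 0.60 ± 0.18 (SE) between Adh and Sep cells and of -0.63 ± 0.17 between Adh and Susp cells. It passed the threshold between Susp and Sep cells. In the other comparisons, with fold changes of 1.51 and 1.55, it did not pass in the edgeR model, but it passed in both with DESeq2, at log2 fold changes of 0.59 and -0.63, and between Adh and Susp cells also with the replicate number as a block, at -0.63. Leaving out any single library kept SLC16A4 past the threshold between Susp and Sep cells, with log2 fold changes from 1.14 to 1.32. Between Adh and Sep cells it passed when Susp replicate 2 was left out, at a log2 fold change of 0.60. LAMTOR5-AS1 on the opposite strand shares 4.2% of the exon bases of SLC16A4.

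**Figure D1:**
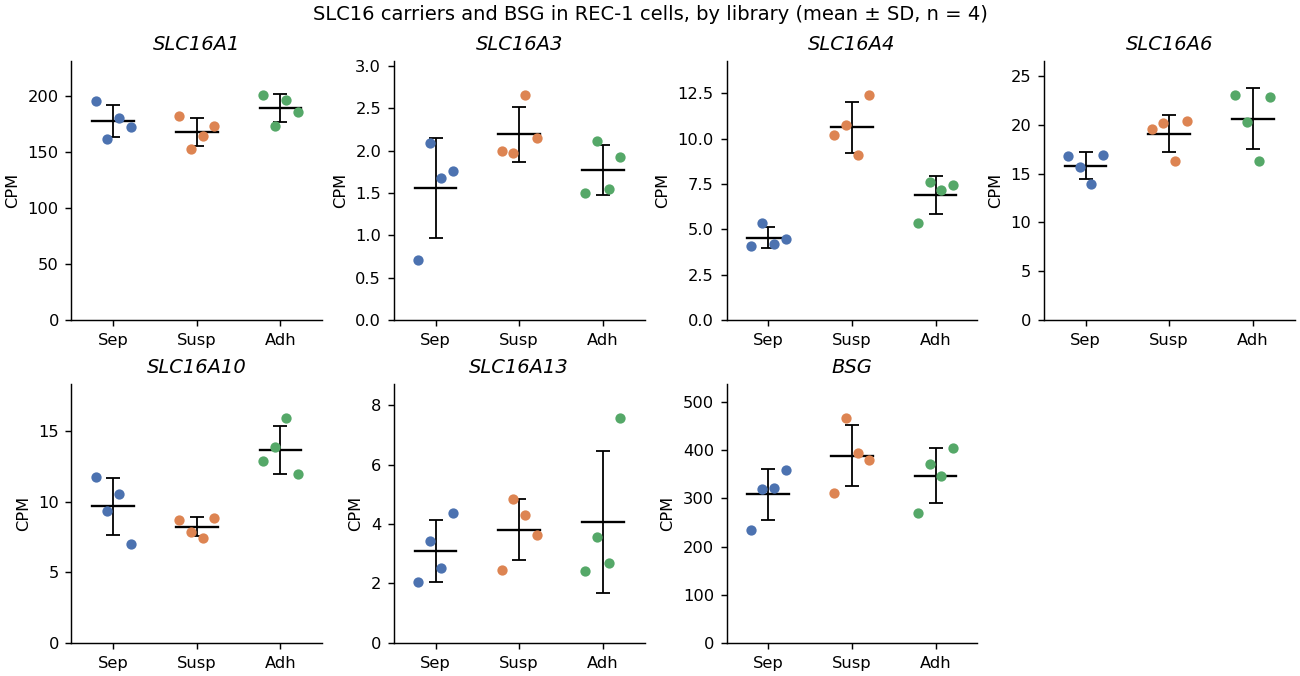
Levels in CPM of the 7 genes with counts in each REC-1 library, by group, with the mean and SD of 4 libraries. The SLC16A4 points of Susp cells, from 9.09 to 12.4 CPM, lie above those of both other groups, and the SLC16A10 points of Adh cells, from 11.9 to 15.9 CPM, lie above those of both other groups.

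SLC16A10 was highest in Adh cells. It was at 11.7, 9.37, 10.6 and 7.02 CPM in Sep, at 8.69, 7.87, 7.44 and 8.86 CPM in Susp and at 12.9, 13.9, 15.9 and 11.9 CPM in Adh libraries. Every Adh library was above every Susp and every Sep library, while Susp libraries lay within the range of the Sep libraries. Means were 9.67 ± 2.01, 8.22 ± 0.675 and 13.6 ± 1.72 CPM (SD, n = 4). Its log2 fold change was 0.73 ± 0.16 (SE) between Adh and Susp cells, 0.50 ± 0.17 between Adh and Sep cells and -0.24 ± 0.16 between Susp and Sep cells.

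SLC16A10 was past the threshold between Adh and Susp cells, but near it. It remained so without Sep replicate 1 or Sep replicate 4, and was no longer past it when any of the other 10 libraries was left out, with log2 fold changes from 0.65 to 0.79 over all 12 of these fits. Upper-quartile normalization also ended the call, at a log2 fold change of 0.72. Without Sep replicate 1, SLC16A10 passed between Adh and Sep cells as well, at 0.61. MFSD4B-DT on the opposite strand shares 1.58% of its exon bases.

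Past the threshold, irrespective of direction, were 1 of the 7 genes between Susp and Sep cells (SLC16A4, higher), 0 between Adh and Sep cells and 1 between Adh and Susp cells (SLC16A10, higher). The share of all tested genes past it was 0.731%, 2.40% and 0.778%, respectively. Groups did not overlap for 1 gene between Susp and Sep cells (SLC16A4), 1 between Adh and Sep cells (SLC16A10) and 2 between Adh and Susp cells (SLC16A4 and SLC16A10), against 11.3%, 15.7% and 11.4% of all tested genes. The median log2 fold change of the 7 genes was 0.30, 0.36 and 0.06, where that of all tested genes lay between -0.006 and -0.003. As the set was chosen with these values known, nothing is read from the counts. The comparisons share their samples in pairs, so values of a gene across them are not independent.

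**Figure D2:**
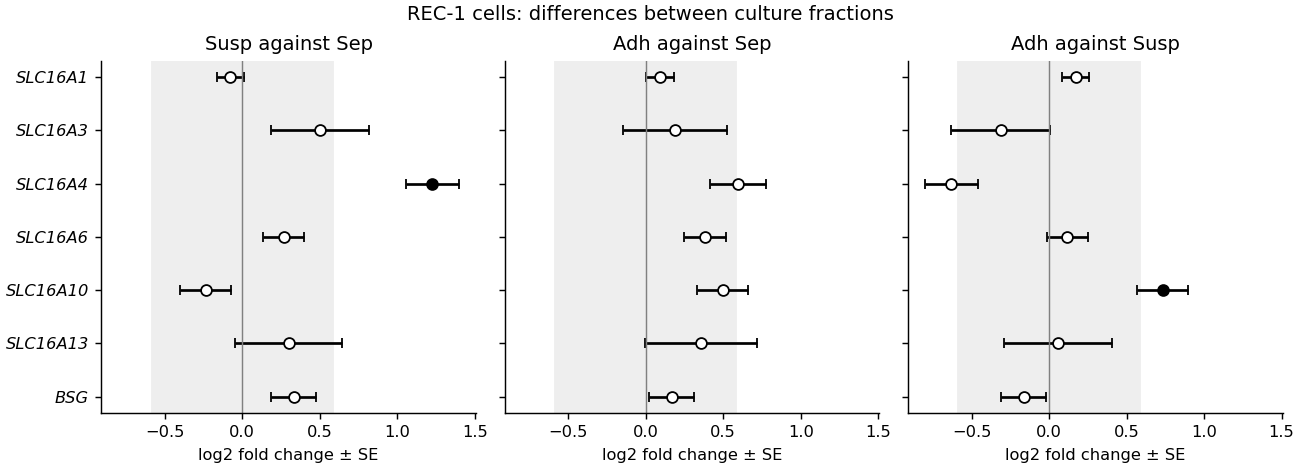
Log2 fold changes with SE of the 7 genes in the 3 comparisons of REC-1 groups. The grey band marks fold changes under 1.5, and filled points passed the threshold, as SLC16A4 did between Susp and Sep cells (1.23) and SLC16A10 between Adh and Susp cells (0.73).

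SLC16A6 (ENSG00000108932, chr17:68267026-68291267, minus strand) was at 16.8, 15.6, 13.9 and 16.9 CPM in Sep, at 19.6, 20.2, 16.3 and 20.3 CPM in Susp and at 23.1, 20.3, 16.3 and 22.8 CPM in Adh libraries. Replicate 3 was lowest in each group and brought both coculture groups into the Sep range. By replicate number, the Susp and the Adh library were both above the Sep library. How many of all genes have this order was not counted, so nothing is read from it. On the log2 scale the difference was 0.27 ± 0.13 (SE) between Susp and Sep cells, 0.38 ± 0.14 between Adh and Sep cells and 0.12 ± 0.13 between Adh and Susp cells. ARSG on the opposite strand shares 3.55% of its exon bases.

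SLC16A3, the carrier of strongly glycolytic cells (ENSG00000141526, chr17:82217934-82261129, plus strand), was low. It was at 0.709, 2.09, 1.67 and 1.75 CPM in Sep, at 1.99, 1.97, 2.66 and 2.15 CPM in Susp and at 1.5, 2.12, 1.54 and 1.92 CPM in Adh libraries, from 9 to 55 counts. The groups overlapped, and Sep replicate 1 stood below all other libraries. Susp and Sep cells differed by 0.50 ± 0.32 (SE) on the log2 scale and Adh and Susp cells by -0.31 ± 0.32, and the difference between Adh and Sep cells, 0.19 ± 0.34, became -0.06 without Sep replicate 1. Reads of SLC16A3 cannot be told from those of CSNK1D and MIR6787 over 5.88% of its exon bases.

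SLC16A13 (ENSG00000174327, chr17:7036015-7040117, plus strand) was also low, at 2.05, 3.43, 2.51 and 4.39 CPM in Sep, 2.46, 4.86, 4.30 and 3.63 CPM in Susp and 2.41, 3.56, 2.70 and 7.57 CPM in Adh libraries. Adh replicate 4 was the highest of the 12 libraries, and the other 3 Adh libraries lay within the Sep range. The log2 fold change of 0.36 ± 0.36 (SE) between Adh and Sep cells turned to -0.11 without that library, and that of 0.06 ± 0.35 between Adh and Susp cells turned to -0.41. Between Susp and Sep cells it was 0.30 ± 0.35.

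SLC16A7, the gene of MCT2 (ENSG00000118596, chr12:59596029-59789855, plus strand), had 0 counts in all 12 libraries. A count of 0 allows up to 3 counts, equal to 0.145 to 0.385 CPM depending on the library. Such limits cover counting error only, and low counts here were in excess even. In the human counts, 2.1 to 3.3 times as many genes had 2 counts as had 1. This is the pattern given when both reads of a pair are counted, and precision at a few CPM is lower than such limits imply. Of the family genes outside the set, SLC16A5, SLC16A12 and SLC16A14 also had 0 counts throughout, SLC16A8 and SLC16A11 had at most 2 and 5 counts in a library, and SLC16A9, with at most 14, was tested and did not pass the threshold in any comparison.

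Per kilobase of exon, the order of the genes was led by BSG at 69.9 ± 11.9, 88.0 ± 14.4 and 78.7 ± 13.0 RPKM and SLC16A1 at 27.9 ± 2.25, 26.4 ± 1.98 and 29.8 ± 1.96 RPKM (SD, n = 4) in Sep, Susp and Adh cells. SLC16A6 came next at 3.90 ± 0.346, 4.71 ± 0.471 and 5.09 ± 0.774 RPKM. SLC16A4 was level with SLC16A13 in Sep cells, at 1.43 ± 0.182 against 1.44 ± 0.483 RPKM, and above it in every Susp library, at 3.36 ± 0.439 against 1.78 ± 0.482 RPKM. In Adh cells the values of 2.18 ± 0.333 and 1.89 ± 1.12 RPKM overlapped again. SLC16A10 followed at 0.861 ± 0.179, 0.731 ± 0.0601 and 1.21 ± 0.153 RPKM, overlapping SLC16A13 in Sep and Adh libraries, and SLC16A3 was lowest of the genes with counts, at 0.169 ± 0.0643, 0.237 ± 0.0348 and 0.192 ± 0.0324 RPKM.

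Summed over the SLC16 genes of the set, RPKM was 35.7 ± 1.91 in Sep, 37.3 ± 1.87 in Susp and 40.3 ± 1.91 in Adh libraries (SD, n = 4). SLC16A1 made up 78.1 ± 2.51% of this sum in Sep, 70.9 ± 2.76% in Susp and 73.8 ± 3.58% in Adh libraries, the largest part in every library. Within single libraries, SLC16A1 was 90.0 to 400.5 times as high as SLC16A3. The highest ratio was that of Sep replicate 1, with 9 counts of SLC16A3, and the next highest was 194.3 in Adh replicate 1. The RPKM ratio of SLC16A10 to SLC16A4, which does not depend on scaling between libraries, was 0.807, 0.493, 0.711 and 0.442 in Sep, 0.240, 0.206, 0.231 and 0.201 in Susp and 0.678, 0.513, 0.623 and 0.451 in Adh libraries. Susp libraries were below all others, while Sep and Adh overlapped. Both genes were picked for their wide group differences in these same libraries. The order of this ratio follows from that choice and adds no support. The ratio of BSG to the summed SLC16 RPKM was 1.97 ± 0.400, 2.38 ± 0.486 and 1.96 ± 0.344 in Sep, Susp and Adh libraries.

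As Adh libraries hold mouse RNA, the number of mouse reads that could have been counted as human was examined. Mouse Slc16a4 had 613 to 847 mouse counts in the Adh libraries, where human SLC16A4 had 56 to 79. Over 6 stromal marker genes with at least 1000 mouse counts, human counts of the same gene reached at most 0.0236% of the mouse counts, and 19 of 24 values were 0. At that share, mouse reads would add at most 0.2 counts to SLC16A4, or 0.307% of its human counts, none to SLC16A10, at most 0.200% to BSG and at most 0.493% to SLC16A13. The human stromal marker genes summed to 1.12 to 2.68 CPM in Sep, 1.26 to 2.39 CPM in Susp and 0.257 to 2.10 CPM in Adh libraries.

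The genes whose pattern over the 12 libraries was most like that of SLC16A4 were sought among 9637 genes with a mean of at least 5 CPM, by the root mean squared difference of log2 CPM from the Sep mean. Among the nearest were KCNH2, a potassium channel (0.27), CD70, the ligand of CD27 (0.29), IGLC2, an immunoglobulin lambda constant gene (0.29), and FAM129C, a gene of B cells (0.29), where the median gene differed by 0.81. CD70 was at 70.5 ± 9.79 CPM in Sep, 130.9 ± 28.8 CPM in Susp and 103.0 ± 19.2 CPM in Adh cells (SD, n = 4), and KCNH2 at 17.6 ± 3.01, 32.5 ± 6.47 and 26.8 ± 5.27 CPM. As these genes were picked for their likeness to SLC16A4 over the same libraries, their order of group means was fixed by that choice. IGLC2 has near-identical copies, so its counts are uncertain.

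**Figure D3:**
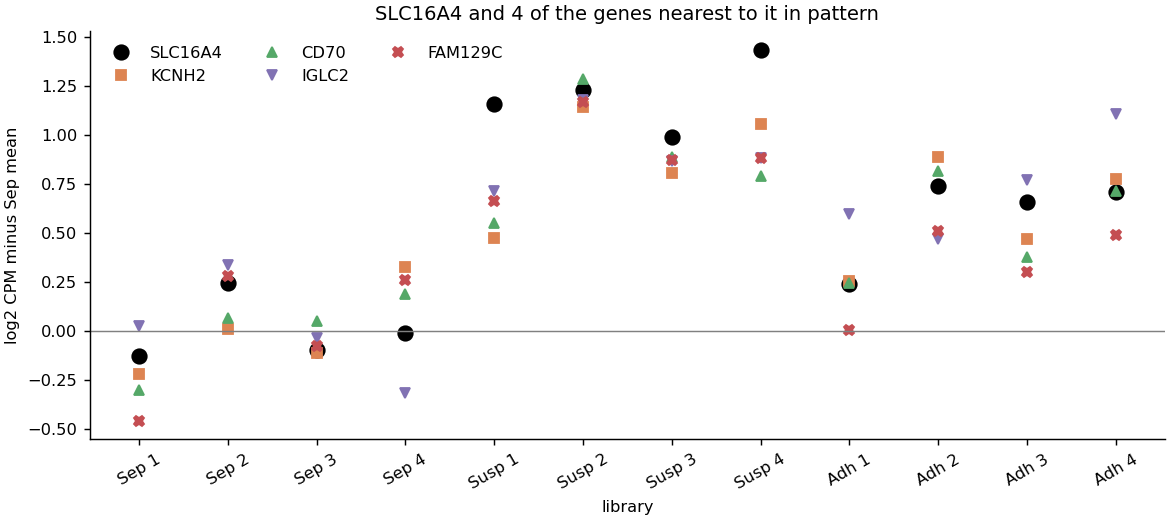
Log2 CPM relative to the Sep mean in each of the 12 REC-1 libraries for SLC16A4 and 4 of the genes nearest to it by root mean squared difference. SLC16A4 lies from 0.99 to 1.43 in Susp and from 0.24 to 0.74 in Adh libraries.

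The genes that make and use the cargo of these carriers were followed in 50 listed companions, of which 35 were tested. By edgeR's quasi-likelihood test with Benjamini-Hochberg adjustment over all tested genes, 1 was higher and 0 were lower between Susp and Sep cells, and 0 passed between Adh and Sep or Adh and Susp cells. An unadjusted p-value under 0.05 was found for 12, 15 and 5 of them, against 16.7%, 20.2% and 18.0% of all genes, with median log2 fold changes of 0.18, 0.16 and 0.03. With DESeq2, 1, 0 and 0 passed.

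Among 12 carriers of large neutral and aromatic amino acids, 8 were tested and SLC43A2 (LAT4), which lets these amino acids leave the cell, was higher in Susp than in Sep cells. It was at 43.2, 50.9, 47.3 and 62.8 CPM in Sep, 65.6, 90.4, 93.7 and 82.1 CPM in Susp and 59.1, 82.2, 69.5 and 78.1 CPM in Adh libraries. All Susp libraries were above all Sep libraries, by 0.70 ± 0.14 (SE) on the log2 scale (edgeR adjusted p = 0.0181). The call was lost without Sep replicate 1, 2 or 3 or Susp replicate 3, with edgeR adjusted p from 0.0546 to 0.0664. Between Adh and Sep cells the log2 fold change was 0.50 ± 0.14 (adjusted p = 0.0614), and between Adh and Susp cells it was -0.20 ± 0.14 (adjusted p = 0.444). SLC43A2 and SLC16A10 both encode carriers of aromatic amino acids, but their highest mean was in different groups.

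Of the 4 tested genes among 6 other monocarboxylate carriers and chaperones, none passed. EMB encodes embigin, the other chaperone of this family, and was at 213.5 ± 25.5 CPM in Sep, 172.3 ± 14.2 CPM in Susp and 220.2 ± 12.7 CPM in Adh cells (SD, n = 4). Every Susp library was below every Sep and every Adh library. The log2 fold change was 0.35 ± 0.09 (SE) between Adh and Susp cells (edgeR adjusted p = 0.0854) and -0.31 ± 0.09 between Susp and Sep cells (adjusted p = 0.138).

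Of 15 genes of lactate and pyruvate dehydrogenase, 11 were tested and none passed both criteria. Between Adh and Sep cells, groups did not overlap for 7 of the 11, all higher in Adh cells, against 15.7% of all tested genes, and the median log2 fold change was 0.26. For LDHA, LDHB, PDHA1 and DLD, named after their values were seen, the edgeR adjusted p was below 0.05 with a fold change under 1.5. The share of all tested genes with such values is not given here, so nothing is read from their number. LDHA, the subunit that favors lactate, was at 996.2 ± 59.6, 1129 ± 63.3 and 1214 ± 46.1 CPM in Sep, Susp and Adh cells (SD, n = 4). Its log2 difference between Adh and Sep cells was 0.28 ± 0.07 (SE, edgeR adjusted p = 0.0363). LDHB, the subunit that favors pyruvate, was at 1610 ± 111.9, 2014 ± 262.5 and 2081 ± 64.6 CPM in Sep, Susp and Adh cells. Its log2 fold change between Adh and Sep cells was 0.37 ± 0.09 (adjusted p = 0.0271). PDHA1 and DLD, subunits of the pyruvate dehydrogenase complex, had log2 fold changes of 0.31 ± 0.07 (adjusted p = 0.0302) and 0.34 ± 0.09 (adjusted p = 0.0447) between Adh and Sep cells. Means in Sep, Susp and Adh cells were 130.2, 148.5 and 161.5 CPM for PDHA1 and 165.7, 174.0 and 209.5 CPM for DLD. PDK2, a kinase that switches this complex off, was at 17.1 ± 1.59, 22.2 ± 1.66 and 16.6 ± 2.90 CPM in Sep, Susp and Adh cells, with a log2 fold change of -0.41 ± 0.13 between Adh and Susp cells (adjusted p = 0.142).

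**Figure D4:**
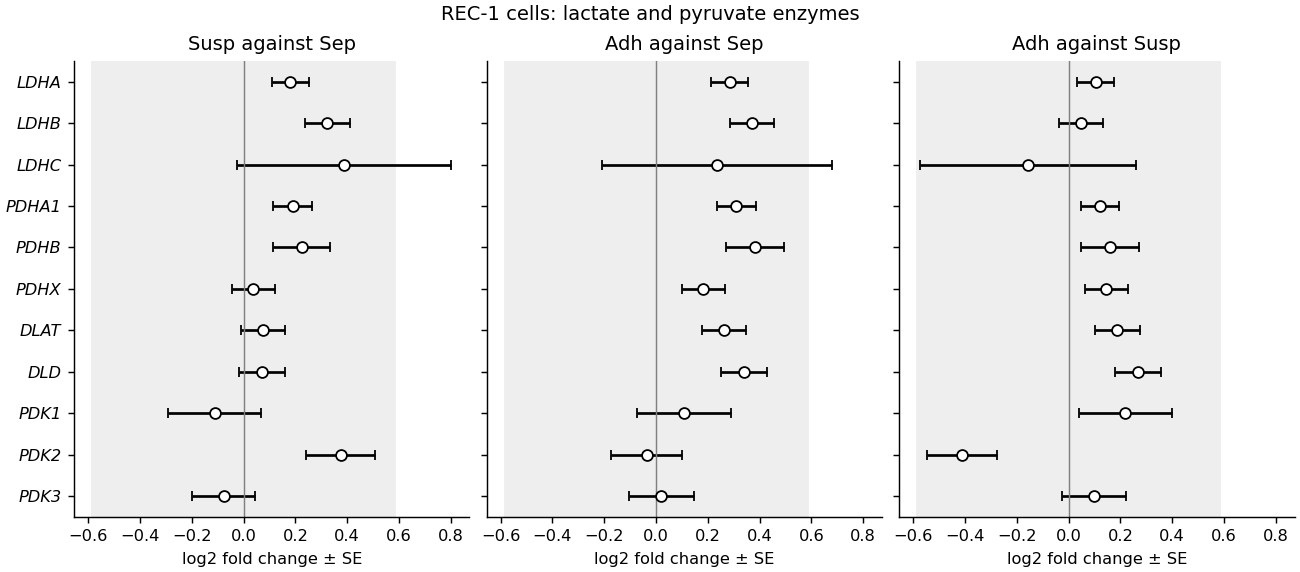
Log2 fold changes with SE of the 11 tested lactate and pyruvate dehydrogenase genes in the 3 comparisons of REC-1 groups. Between Adh and Sep cells LDHA, LDHB, PDHA1 and DLD lie at 0.28, 0.37, 0.31 and 0.34, inside the grey band of fold changes under 1.5.

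Of 8 genes of ketone body metabolism 7 were tested, and of 9 glucose carriers, hexokinases and pyruvate kinases 5, with no call in any comparison of REC-1 groups. The largest difference between Adh and Susp cells among the former was that of BDH2, at a log2 difference of -0.76 ± 0.47 (SE, edgeR adjusted p = 0.397) on levels of 0.498 ± 0.211 and 0.888 ± 0.101 CPM (SD, n = 4). Among the latter it was that of SLC2A8, at -0.34 ± 0.20 (adjusted p = 0.372).

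MS-5 cells expressed the family too. Of 15 mouse Slc16 and Bsg genes, 6 were tested between MS-5 cells adhered to by REC-1 cells and MS-5 cells alone, and 0 passed the threshold, where 0.205% of 12201 tested genes did. None had an unadjusted p below 0.05, against 11.3% of all genes, and with DESeq2 0 passed as well. The libraries of both groups overlapped in all 6 genes, whereas they did not for 6.74% of all tested genes. Slc16a1 was at 117, 124, 112 and 110 CPM in MS-5 cells alone and at 126, 127, 122 and 118 CPM with REC-1 cells. The log2 difference was 0.09 ± 0.06 (SE, edgeR adjusted p = 0.580) with a 95% confidence interval of -0.03 to 0.21. Slc16a4 was at 21.1, 19.6, 18.3 and 20.7 CPM alone and at 25, 21.1, 20.9 and 19.5 CPM with REC-1 cells, a log2 fold change of 0.12 ± 0.10 (adjusted p = 0.700) with a 95% confidence interval of -0.09 to 0.33.

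Bsg was at 660 ± 26.7 CPM in MS-5 cells alone and 687 ± 41.4 CPM with REC-1 cells (SD, n = 4), with a log2 difference of 0.06 ± 0.05 (SE, edgeR adjusted p = 0.742). Slc16a13 was at 12.6 ± 0.438 and 13.5 ± 2.47 CPM, a log2 fold change of 0.10 ± 0.13 (adjusted p = 0.824). Slc16a6 and Slc16a11 were low, at 1.07 ± 0.232 and 1.60 ± 0.296 CPM alone and 0.983 ± 0.300 and 1.58 ± 0.183 CPM with REC-1 cells, with log2 fold changes of -0.11 ± 0.33 and -0.01 ± 0.25 (adjusted p = 0.944 and 0.992). Slc16a10 and Slc16a7 had 0 counts in all 8 libraries, and Slc16a3 had 1 to 9 counts. SLC16A10, the aromatic amino acid carrier gene of the set, was thus counted in the lymphoma compartment only. Of 12 mouse genes listed as carriers of large neutral and aromatic amino acids, however, 7 had enough counts to be tested. The predominant SLC16 carrier gene was SLC16A1 or Slc16a1 in both compartments. Mouse markers of blood cells were at 0 in MS-5 cells alone and at most 0.0681 CPM in Adh libraries, and the stromal markers summed to 4119 to 4417 CPM and 4208 to 4729 CPM, with Lum and Thy1 at 0.

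**Figure D5:**
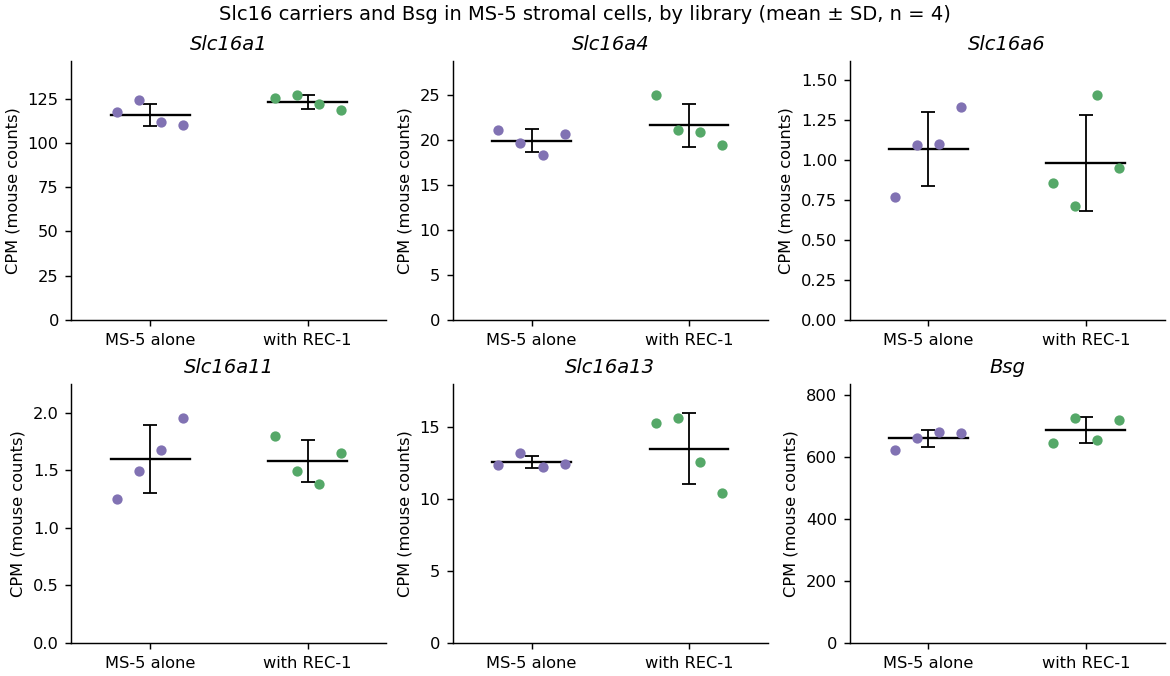
Levels in CPM of mouse counts of the 6 tested Slc16 and Bsg genes in MS-5 cells alone and with adhered REC-1 cells, with the mean and SD of 4 libraries. The libraries of both groups overlap in every gene.

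Of 49 listed mouse companions 34 were tested, and 0 passed both criteria, against 0.205% of all tested mouse genes. An unadjusted p below 0.05 was found for 7 of the 34, against 11.3% of all tested mouse genes. Pdk1, a kinase that switches off pyruvate dehydrogenase, was named after its values were seen. It was at 66.7, 61.9, 61.6 and 56.3 CPM in MS-5 cells alone and at 91.4, 78.4, 76.6 and 78.7 CPM with REC-1 cells. All libraries with REC-1 cells were higher, by a log2 difference of 0.40 ± 0.07 (SE, edgeR adjusted p = 0.0155), under the fold minimum.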

How the data were processed

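Libraries were prepared from poly-A RNA with TruSeq v2, which does not mark strand. The authors separated human from mouse reads with Xenome, aligned them with STAR 2.5.1b to GRCh38 or GRCm38 and counted them on genes with featureCounts (Subread 1.5.2). The deposited values are raw counts per gene, neither normalized nor filtered. 20 columns of samples outside these groups were not used.

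Counts were analyzed in R 4.3.3 with edgeR 4.0.16 (filterByExpr with a minimum count of 10, TMM normalization, quasi-likelihood test). The 12 REC-1 libraries were fitted together, as were the mouse counts of 4 Adh and 4 MS-5 libraries. The procedure was tested on simulated data. RPKM, gene positions and upstream windows used GENCODE releases of the same genome builds, not the annotation used for counting. The study describes its comparison of Adh with Susp cells as 4 independent experiments. The labels give libraries of the 4 groups a shared replicate number and a shared number in the sample code. They do not state that these numbers mark the experiments. Mouse totals ranged from 10097555 to 17397651 in MS-5 and from 29495404 to 34615602 in Adh libraries.

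The members and all gene lists were chosen with earlier results of these data known. Named were all members, every called companion, in a list with no call in any comparison the gene with the largest difference between Adh and Susp cells, all tested mouse family genes and the 5 genes nearest to SLC16A4, of which 1 is not reported here. Alternatives were a replicate block, DESeq2 1.42.0, upper-quartile normalization, no low-count filter, no fold minimum, the 2 compared groups alone, and leaving out each library.

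Libraries with the same replicate number share the number in their sample code, which points to sets by number. The correlation of their deviations from the group means exceeded 0.1 for only 1 to 3 of 4 numbers in each comparison. For replicate 1 it was 0.29 to 0.32 in every comparison, so these values do not show that the libraries are unpaired. Groups were compared without pairing, and the calls depend on this choice. More genes passed in each comparison with the replicate number as a block, as given below.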

Additional observations from a re-analysis of the deposited data

Results flagged for a closer look

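Dixon's test for an extreme library was applied to 62 groups of 4, by the gap between it and the nearest library over the range of the group, and 2 groups exceeded the 95% critical value. Chance alone flags about 1 in 20 groups. LDHB, the lactate dehydrogenase subunit that favors pyruvate, was at 2402 CPM in Susp replicate 2, where the next highest Susp library was at 1918 CPM. Mouse Pdk1 was at 91.4 CPM in Adh replicate 1, where the next highest was at 78.7 CPM. None of the 8 genes of the carrier set had such a library.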

How the results depend on the processing

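SLC16A4 was past the threshold between Susp and Sep cells under every alternative run, and no called value reversed. Of the carrier set, 1 gene passed between Adh and Sep cells with DESeq2 (SLC16A4), where the range over fits without 1 library was 0 to 1. Between Adh and Susp cells 2 passed with DESeq2 and 2 with the replicate block (SLC16A4 and SLC16A10), 0 with upper-quartile normalization, and 0 to 1 without 1 library. Companion calls ranged from 0 to 1 without 1 library between Susp and Sep and between Adh and Sep cells, and without a fold minimum were 4 between Adh and Sep cells and 1 in mouse cells. The share of all human genes called without a fold minimum is not given here, so nothing is read from the 4. Counts of all called genes were 94 between Susp and Sep cells (DESeq2 173, no low-count filter 217), 309 between Adh and Sep cells (527 and 503, and 143 to 519 without 1 library, lowest without Sep replicate 2), 100 between Adh and Susp cells (282 and 341, and 51 to 165 without 1 library, lowest without Adh replicate 1) and 25 in mouse cells (45 without the filter, 94 without a fold minimum, and 8 to 36 without 1 library, lowest without MS-5 replicate 3). With the replicate number as a block these counts were 175, 384, 281 and 45. Libraries correlated best with their own number for 1 of 4 numbers between Susp and Sep, 3 between Adh and Sep, 2 between Adh and Susp and 3 in mouse cells, so the block is not shown to pair cultures. The causes of these changes were not tested. Depth limits the precision of genes with few counts, such as SLC16A3 (9 to 55 per library), SLC16A9 (at most 14) and BDH2 (2 to 20).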
